A study of Mus musculus with 16 samples.

Results

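RUNX2 is the runt-domain transcription factor that osteoblasts, the bone-forming cells, need in order to form. The sites described here are the places where it was mapped in differentiated but not in undifferentiated MC3T3-E1 cells, a mouse pre-osteoblast line that lays down mineralised matrix in culture. The sites were chosen by the positions of RUNX2 peaks in both states, so their presence after and absence before differentiation is no finding. A site counted as gained when a RUNX2 peak of the differentiated cells overlapped no RUNX2 peak of the undifferentiated cells by 1 bp or more. Of 6272 differentiated RUNX2 peaks, 1641 were gained, which is 26.2% of that list, and the other 4631 are called kept. The 8058 of 12674 undifferentiated peaks with no differentiated partner are called lost and are used only for comparison. All 14 peak lists of the series together hold 314892 peaks.

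The data are chromatin immunoprecipitation sequencing (ChIP-seq) peak lists for 7 antibodies, with 1 list per antibody and cell state. Differentiated cells had been given ascorbic acid at 50 µg/mL together with 10 mM glycerol-2-phosphate for 15 days, and their matrix was removed with a homogenizer and sucrose before chromatin was made. Undifferentiated cells were the same line without that medium. Cells of both states were at passages 5 to 12 and had received the ethanol vehicle for 3 h, so vehicle is common to all groups compared. For H3K36me3 in differentiated cells only the sample title gives the state, since the treatment label is unreadable. Each list merges biological replicates that cannot be seen apart, so no p-value is given, and the medium, the time in culture and the matrix removal cannot be told apart. The intervals below are 95% intervals for counting error alone, and peaks are not replicates.

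RUNX2 binds DNA as a dimer with CBFβ at short words that read TGTGGT or TGCGGT, and it acts from promoters and from distant enhancers of bone matrix and signalling genes. The antibody label reads H4K5Ac where the protocol text names H3K5Ac, and the label's name is used here. Acetylated H4K5 and H3K9 lie at active regulatory regions, H3K4me1 at enhancers and promoter flanks, H3K4me3 at promoters, and H3K36me3 along the bodies of transcribed genes. C/EBPβ, a basic leucine zipper factor, shares many regulatory regions with RUNX2 in osteoblasts. E-boxes, words of the form CANNTG, are bound by basic helix-loop-helix factors, a family with several regulators of mesenchymal cells.

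The gained peaks below carry the 2 words on which the sequence results turn. They come from the 10 genes with most gained sites, in the order of those genes, and are the gained peaks there that hold both a RUNX word and CAGCTG and overlap no annotated UTR. This set was chosen after its sequences were seen. Positions are mm9, the forward strand is printed 5′ to 3′, and capitals mark TGTGGT or TGCGGT, their reverse complements, and CAGCTG, which reads the same on both strands.
Tbc1d1 chr5:64705600-64705800: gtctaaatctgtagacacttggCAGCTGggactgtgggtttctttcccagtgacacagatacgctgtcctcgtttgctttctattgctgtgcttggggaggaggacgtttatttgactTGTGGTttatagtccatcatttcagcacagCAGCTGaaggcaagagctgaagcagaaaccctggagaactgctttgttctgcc
Gadd45a chr6:67078965-67079165: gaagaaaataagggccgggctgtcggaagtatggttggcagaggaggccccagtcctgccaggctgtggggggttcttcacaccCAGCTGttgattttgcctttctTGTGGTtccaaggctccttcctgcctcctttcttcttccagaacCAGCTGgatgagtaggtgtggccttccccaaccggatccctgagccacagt
Prkce chr17:86609134-86609334: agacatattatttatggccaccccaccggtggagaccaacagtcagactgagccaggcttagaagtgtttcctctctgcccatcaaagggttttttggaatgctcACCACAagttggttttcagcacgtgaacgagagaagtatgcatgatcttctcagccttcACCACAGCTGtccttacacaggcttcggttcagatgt
Tns1 chr1:73903571-73903771: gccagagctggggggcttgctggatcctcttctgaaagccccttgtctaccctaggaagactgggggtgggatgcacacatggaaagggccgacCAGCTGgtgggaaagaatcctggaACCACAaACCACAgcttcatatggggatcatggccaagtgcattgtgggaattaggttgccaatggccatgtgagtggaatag
Tns1 chr1:73891804-73892004: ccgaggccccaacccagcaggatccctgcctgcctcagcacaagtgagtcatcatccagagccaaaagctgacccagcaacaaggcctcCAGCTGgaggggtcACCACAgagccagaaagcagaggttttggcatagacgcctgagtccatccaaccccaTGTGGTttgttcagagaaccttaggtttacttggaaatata
Tgfbr3 chr5:107625086-107625286: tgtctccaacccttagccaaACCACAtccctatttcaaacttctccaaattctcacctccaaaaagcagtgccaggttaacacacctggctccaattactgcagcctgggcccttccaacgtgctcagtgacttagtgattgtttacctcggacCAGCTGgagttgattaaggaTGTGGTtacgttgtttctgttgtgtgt
Col4a2 chr8:11453135-11453335: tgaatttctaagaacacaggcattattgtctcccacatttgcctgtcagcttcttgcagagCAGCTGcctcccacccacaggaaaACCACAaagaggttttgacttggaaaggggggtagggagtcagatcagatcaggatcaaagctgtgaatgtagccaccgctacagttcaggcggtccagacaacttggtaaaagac
The peaks of Tbc1d1 and Gadd45a hold CAGCTG more than once beside a RUNX word, whereas those of Prkce, Tns1 and Tgfbr3 hold more than 1 RUNX word beside CAGCTG. The next sequences show the other forms of a gained site, with 1 word or with neither, and each is its gene's gained peak nearest to a transcription start site (TSS) among those that overlap no UTR.
Tbc1d1 chr5:64579678-64579878: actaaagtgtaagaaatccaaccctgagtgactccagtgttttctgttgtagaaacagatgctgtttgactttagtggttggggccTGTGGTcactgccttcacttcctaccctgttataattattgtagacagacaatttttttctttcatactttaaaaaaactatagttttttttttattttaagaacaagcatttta
Gadd45a chr6:67036093-67036293: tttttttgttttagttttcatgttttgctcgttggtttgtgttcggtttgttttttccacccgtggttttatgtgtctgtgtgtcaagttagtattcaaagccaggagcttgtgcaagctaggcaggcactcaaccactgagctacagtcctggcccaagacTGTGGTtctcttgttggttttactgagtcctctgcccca
Haao chr17:84273239-84273439: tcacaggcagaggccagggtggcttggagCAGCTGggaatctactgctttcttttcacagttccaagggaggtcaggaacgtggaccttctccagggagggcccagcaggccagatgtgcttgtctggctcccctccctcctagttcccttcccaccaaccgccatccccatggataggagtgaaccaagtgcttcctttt
Kcnma1 chr14:24351120-24351320: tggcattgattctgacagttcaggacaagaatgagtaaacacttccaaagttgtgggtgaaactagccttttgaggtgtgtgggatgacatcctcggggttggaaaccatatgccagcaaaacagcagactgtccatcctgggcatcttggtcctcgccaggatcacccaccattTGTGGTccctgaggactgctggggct
Prkce chr17:86566798-86566998: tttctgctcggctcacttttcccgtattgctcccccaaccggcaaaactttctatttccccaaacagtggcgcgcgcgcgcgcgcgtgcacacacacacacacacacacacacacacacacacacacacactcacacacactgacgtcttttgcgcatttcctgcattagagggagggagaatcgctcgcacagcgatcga
Tns1 chr1:74042910-74043110: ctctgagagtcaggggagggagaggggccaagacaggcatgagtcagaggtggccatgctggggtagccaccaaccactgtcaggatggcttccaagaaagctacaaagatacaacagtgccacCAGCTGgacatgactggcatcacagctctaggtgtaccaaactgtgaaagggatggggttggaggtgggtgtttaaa
Hhat chr1:194560118-194560318: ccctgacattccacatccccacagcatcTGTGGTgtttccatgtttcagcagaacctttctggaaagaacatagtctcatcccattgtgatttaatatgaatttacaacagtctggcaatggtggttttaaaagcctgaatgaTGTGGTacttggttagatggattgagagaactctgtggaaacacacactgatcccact
In this set the Haao and Tns1 peaks hold CAGCTG without a RUNX word, and the Prkce peak holds neither. The last sequences belong to gained sites that acquired other features in the lists, described further below. At the Plcg2 site H4K5Ac, H3K4me1 and H3K9Ac were all new, and at the others C/EBPβ and H3K9Ac were both new.
Plcg2 chr8:120050652-120050852: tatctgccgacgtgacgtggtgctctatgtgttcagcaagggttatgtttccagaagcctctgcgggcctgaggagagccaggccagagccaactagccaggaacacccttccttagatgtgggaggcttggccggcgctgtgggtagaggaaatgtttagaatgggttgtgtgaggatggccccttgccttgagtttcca
Rassf5 chr1:133097363-133097563: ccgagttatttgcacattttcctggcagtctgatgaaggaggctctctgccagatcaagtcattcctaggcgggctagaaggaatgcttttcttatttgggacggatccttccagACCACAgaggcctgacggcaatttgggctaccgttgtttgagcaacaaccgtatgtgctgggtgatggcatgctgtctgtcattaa
F7 chr8:13028451-13028651: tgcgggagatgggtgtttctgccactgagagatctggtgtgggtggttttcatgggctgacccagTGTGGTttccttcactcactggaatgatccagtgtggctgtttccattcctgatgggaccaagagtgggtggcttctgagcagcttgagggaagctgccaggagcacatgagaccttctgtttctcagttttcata
Sdccag8 chr1:178931704-178931904: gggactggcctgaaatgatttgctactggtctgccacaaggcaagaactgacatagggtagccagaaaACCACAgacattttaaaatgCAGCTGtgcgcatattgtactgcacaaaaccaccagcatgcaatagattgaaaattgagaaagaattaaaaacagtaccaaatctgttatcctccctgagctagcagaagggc
In all, 14 of these 18 peaks hold a RUNX word, 10 hold CAGCTG and 8 hold both.

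The RUNX word was found at most gained sites. It lay within 100 bp of the centre at 66.4% of gained sites (64.0 to 68.6), 72.8% of kept sites and 56.1% of lost sites, against 16.8% of windows of the same length 1 kb to each side of all these sites. Gained sites thus held it less often than kept sites, with a difference of -6.45 points (-9.09 to -3.86), and more often than lost sites, by 10.3 points (7.71 to 12.8). TGCGGT accounted for much of the first difference, being present at 12.6% of gained and 18.1% of kept sites. With TGTGGT alone the shares were 58.0% of gained and 60.2% of kept sites, and the interval of their difference, -4.93 to 0.612 points, included 0. In gained sites the median distance of a RUNX word from the peak centre was 28.5 bp.

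A second word set the gained sites apart from both other classes. CAGCTG, an E-box with a GC centre, was present at 27.2% of gained sites (25.0 to 29.4), 19.3% of kept sites, 12.2% of lost sites and 9.57% of flanking windows. The excess was 7.92 points over kept sites (5.52 to 10.4) and 15.0 points over lost sites (12.8 to 17.3). CAGATG, another E-box, had the same order, at 25.5% of gained, 19.05% of kept and 13.7% of lost sites, against 14.9% of flanking windows. CACATG had that order too, at 20.4% of gained, 15.7% of kept and 12.4% of lost sites, against 15.4% of flanking windows. E-boxes were not all alike. CACGTG was found at 3.90% of gained and 3.93% of kept sites. CACCTG was more frequent at gained than at kept sites, by 3.40 points (2.00 to 4.96). Its shares, 8.35% of gained and 4.94% of kept sites, both lay below the 13.9% of flanking windows. The word CAGCTG was chosen for this account after all E-box forms had been compared, and any E-box, CANNTG, was present at 74.7% of gained, 66.8% of kept and 59.5% of lost sites, against 65.9% of flanking windows. Its difference between gained and kept sites was 7.94 points, and 4.96 points where a kept site had to overlap over most of a peak's length.

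**Figure D1:**
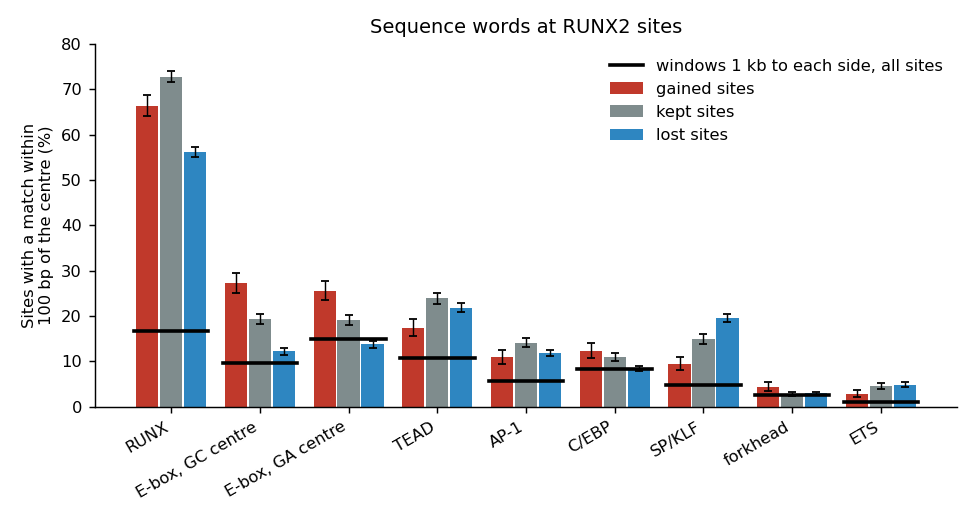
Share of gained, kept and lost RUNX2 sites with each sequence word within 100 bp of the peak centre, in percent, with exact 95% intervals; black lines give windows 1 kb to each side of all sites. The E-box with a GC centre reaches 27.2% of gained sites, 19.3% of kept sites and 12.2% of lost sites, while the RUNX word is most frequent at kept sites.

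The share with CAGCTG was higher at gained than at kept sites in each of the 4 classes of base composition, in introns, between genes and in promoters. Among peaks with 45% GC or less it was present at 18.02% of gained and 12.3% of kept sites, and among peaks of over 55% GC at 27.3% of gained and 20.8% of kept sites, and the differences were 11.5 points at 45 to 50% GC and 12.5 points at 50 to 55% GC. In introns the shares were 27.9% of gained and 21.9% of kept sites, and between genes 29.8% of gained and 20.1% of kept sites. In promoters, within 1 kb of a TSS, the intervals of gained sites, 17.1% (12.5 to 22.6), and kept sites, 12.9% (10.8 to 15.2), overlapped. CAGCTG that shared no base with a RUNX word was found at 25.6% of gained, 18.2% of kept and 11.6% of lost sites. Both words occurred together at 19.1% of gained, 14.2% of kept and 6.90% of lost sites. In gained sites that held both, the median distance between them was 36 bp. CAGCTG was present at 26.8% (20.5 to 33.9) of the 179 gained sites within 1 kb of an undifferentiated RUNX2 peak and at 29.4% (24.2 to 35.0) of the 289 over 100 kb from one.

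**Figure D2:**
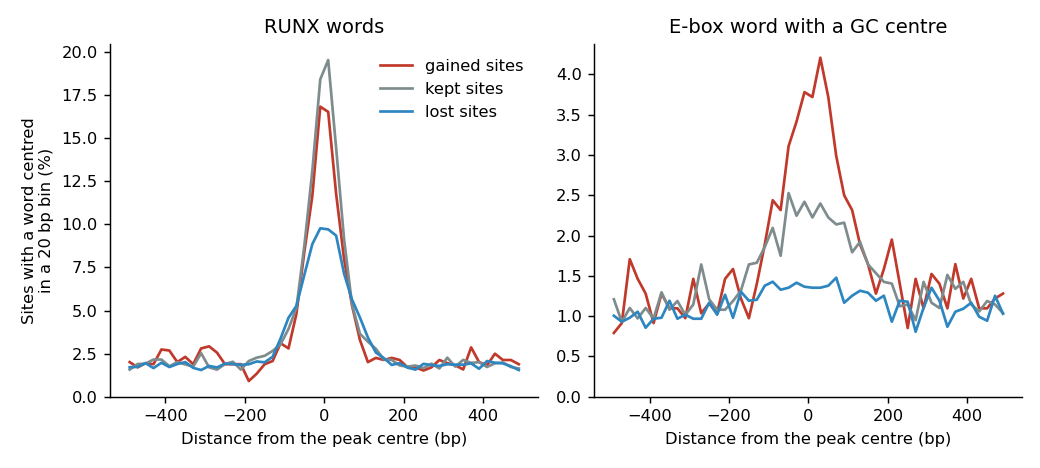
Share of gained, kept and lost RUNX2 sites with a word centred in each 20 bp bin, in percent, by distance from the peak centre in bp; left, RUNX words, right, the E-box CAGCTG. RUNX words peak at the centre of all 3 classes, with 16.8% of gained and 18.4% of kept sites in the bin centred at -10 bp, whereas the E-box peak is tallest at gained sites, with 3.78% of gained, 2.42% of kept and 1.37% of lost sites in that bin.

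The same order of CAGCTG was present where RUNX2 was not mapped. Among C/EBPβ sites that overlap no RUNX2 peak, the word was found at 19.05% of those gained on differentiation, 13.4% of those kept and 11.4% of those lost. The difference in CAGCTG was thus also present at sites without RUNX2 in these lists. Other families differed in the opposite direction or little. The TEAD word GGAATG was present at 17.4% of gained and 23.9% of kept sites, the AP-1 word TGANTCA at 10.8% of gained and 14.0% of kept sites, and the SP/KLF word GGGCGG at 9.45% of gained and 14.9% of kept sites. The forkhead word TGTTTAC was rare at 4.33% of gained and 2.70% of kept sites, and the difference was 1.63 points (0.610 to 2.80).

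Gained sites lay farther from genes' start sites than the sites that RUNX2 had occupied before. Their median distance to a TSS was 24108 bp, against 17655 bp for kept and 11576 bp for lost sites. Promoters held 13.9% of gained sites, 20.3% of kept sites and 29.2% of lost sites, and the difference between gained and kept sites was -6.36 points (-8.34 to -4.27). It was -2.92 points where a kept site had to overlap over most of a peak's length. Introns held 36.5% of gained and 34.6% of kept sites, and the space between genes held 47.5% of gained and 43.5% of kept sites. Every RUNX2 peak of both lists merged at least 2 peaks. For 20 gained peaks, 1.22%, the number was 3 or more, against 2.66% of kept and 5.96% of lost peaks. Whether this number counts replicates is not known, and the part of reproducibility between replicates in the results was not tested.

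The gap between a gained site and the nearest undifferentiated RUNX2 peak had a median of 24564 bp, with quartiles at 6123 and 71162 bp. There were 179 gained sites within 1 kb of such a peak, which is 10.9%, and 289 over 100 kb from any. At the edge of the rule, the gained site nearest to Cdh5 abutted an undifferentiated peak with a gap of 0 bp, and the sites nearest to Fam53a and Sfswap lay 1 bp away. On the other side, kept sites nearest to Tns4 and Dlg1 overlapped by 1 bp and that nearest to Pld1 by 2 bp. Such edge cases were few, since 13 gained sites had a gap of 10 bp or less and 23 kept sites overlapped by 10 bp or less, while the median overlap of kept sites was 168 bp.

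Most gained sites lay in H4K5-acetylated and H3K4me1-marked chromatin already in undifferentiated cells, but less often than kept sites did. H4K5Ac covered 89.4% of gained and 96.7% of kept sites in differentiated cells, and 86.7% of gained and 98.0% of kept sites in undifferentiated cells. H3K4me1 covered 96.2% of gained and 99.2% of kept sites in differentiated cells, and 89.3% of gained and 98.1% of kept sites in undifferentiated cells. New H4K5Ac and H3K4me1 were few and more frequent at gained sites, which also more often lacked these marks before. H3K4me1 in differentiated cells alone was found at 7.56% of gained, 1.32% of kept and 2.51% of lost sites, and H4K5Ac in differentiated cells alone at 5.06% of gained, 0.497% of kept and 0.298% of lost sites. Of sites outside H3K4me1 in undifferentiated cells, 70.9% of gained and 69.3% of kept sites had it in differentiated cells, a difference of 1.54 points (-9.67 to 13.6). For H4K5Ac these shares were 38.1% of gained and 24.5% of kept sites, a difference of 13.6 points (2.20 to 23.7).

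H3K9Ac showed a wide gap between gained sites and both other classes. It covered 52.3% of gained sites in differentiated and 25.8% in undifferentiated cells, while kept sites had 83.0% in differentiated and 55.3% in undifferentiated cells. The difference between gained and kept sites was -30.6 points after differentiation (-33.3 to -28.0) and -29.5 points before it (-32.0 to -26.9). With only mark regions above their list's median score, the difference before it was -15.0 points for H3K9Ac, -18.4 for H4K5Ac and -19.7 for H3K4me1. H3K9Ac in differentiated cells alone was found at 26.7% of gained and 27.9% of kept sites, a difference whose interval, -3.71 to 1.28 points, included 0. The H3K9Ac list of differentiated cells is the longer, with 23671 regions against 14975 in undifferentiated cells, and the part of list length was not tested. Lost sites also had the mark more often in the differentiated list, at 73.6%, than in the undifferentiated list, at 54.7%. The mark was absent in both states at 47.5% of gained, 16.8% of kept and 25.8% of lost sites. Away from promoters H3K9Ac covered 46.2% of gained sites in differentiated and 16.8% in undifferentiated cells. Closeness to an earlier RUNX2 peak went with the mark: H3K9Ac covered 95.5% of the 179 gained sites within 1 kb of one in differentiated cells, but 38.4% of the 289 over 100 kb away.

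**Figure D3:**
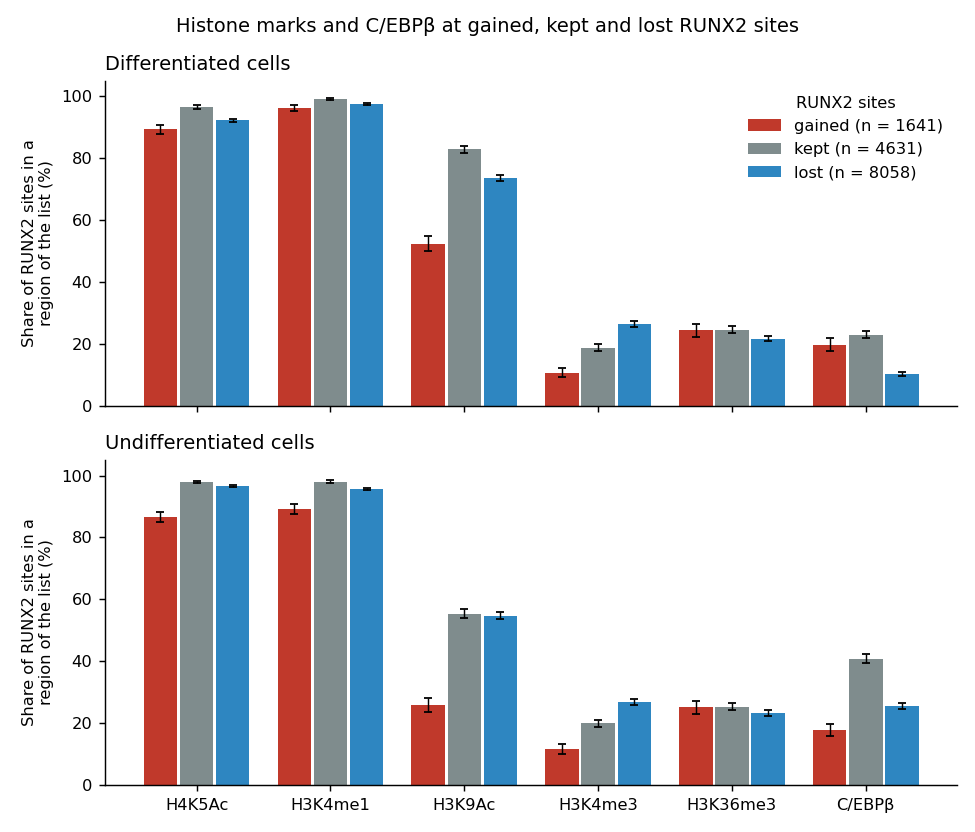
Share of gained, kept and lost RUNX2 sites that lie in a region of each histone mark, or overlap a C/EBPβ peak, in percent with exact 95% intervals; top, lists of differentiated cells, bottom, lists of undifferentiated cells. H3K9Ac covers 52.3% of gained sites in the top panel and 25.8% in the bottom panel, below kept sites in both, and C/EBPβ covers 19.7% of gained sites in the top panel and 17.7% in the bottom panel.

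Gained and kept sites alike lay in wide H4K5Ac regions of differentiated cells. The H4K5Ac regions that held gained sites had a median width of 16.1 kb and those of kept sites 15.2 kb, against 4.41 kb over all H4K5Ac regions. For gained sites the median rank of the deposited score was at percentile 87.4, against percentile 90.5 for kept sites. H3K9Ac regions of gained sites had a median width of 4.25 kb, against 2.91 kb over all H3K9Ac regions, and a score at percentile 57.0. Of the 1467 gained sites inside an H4K5Ac region, 645 (44.0%) shared it with at least 1 undifferentiated RUNX2 site, and 822 (56.0%) lay in a region with none. Over all 33439 H4K5Ac regions, 25.2% held an undifferentiated RUNX2 site, and wide regions hold more of any site. Another gained site lay in the same region for 287 of the 1467.

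H3K4me3 was uncommon at gained sites, covering 10.7% of gained and 18.8% of kept sites in differentiated cells, and 11.5% of gained and 19.95% of kept sites in undifferentiated cells. Away from promoters the difference between gained and kept sites was -1.92 points after and -3.32 points before differentiation. Of the 228 gained promoter sites, 152 had it in differentiated and 138 in undifferentiated cells, and 24 had it in differentiated cells alone. That is 10.5% of gained promoter sites, against 10.6% of kept promoter sites. The 24 included the promoter of Runx3, which encodes a second runt-domain factor, where the gained site lay in a UTR 157 bp from the TSS at chr4:134676624-134676824 and 111 bp from an undifferentiated RUNX2 peak. They also included Mertk, a receptor tyrosine kinase, S100a4, a calcium-binding protein, Pcx, the mitochondrial pyruvate carboxylase, and Bcl9l, a cofactor of β-catenin. The mark was new at the site, not always at the gene, since Mertk had H3K4me3 within 1 kb of a TSS in both states. The others were Adh7, Adprhl2, Agbl5, Arhgef17, Armc10, Arpc5l, Clcn4-2, Dzip1, Hist1h4h, Klhdc8a, Mmaa, Trim16, Wdr25 and 6 genes known only by clone or model names.

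A set of 113 gained sites, 6.89%, lay outside H4K5Ac, H3K4me1, H3K9Ac and H3K4me3 in undifferentiated cells, against 0.605% of kept and 1.45% of lost sites. In differentiated cells 73 of the 113 lay inside at least 1 of these marks, and 40 remained outside all of them. The only gained site that went without all 4 marks in undifferentiated cells and held 3 in differentiated cells was in an intron of Plcg2, which encodes a phospholipase C, 28.6 kb from its TSS. Gained sites outside H4K5Ac in undifferentiated cells held the RUNX word at 78.0%, against 64.6% of those inside it, and the contrast was also present at kept sites, with 91.5% outside and 72.4% inside.

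C/EBPβ stood at nearly equal shares of gained sites in both states, and 146 sites had it in both. It overlapped 19.7% of gained sites in differentiated and 17.7% in undifferentiated cells, whereas kept sites had 23.0% in differentiated and 40.9% in undifferentiated cells. Lost sites had 10.3% in differentiated and 25.5% in undifferentiated cells. The C/EBPβ list of differentiated cells is the shorter, with 10847 peaks against 15622 in undifferentiated cells, and the part of list length was not tested. C/EBPβ in differentiated cells alone was found at 178 gained sites, 10.8% of them, against 4.79% of kept and 1.50% of lost sites. Among gained RUNX2 sites with C/EBPβ in differentiated cells, 54.9% had none before (49.3 to 60.4), against 20.8% of such kept sites (18.4 to 23.4). Over the whole list of differentiated C/EBPβ peaks, 37.9% overlapped no undifferentiated C/EBPβ peak. The C/EBP word TTNNGCAA lay at 25.6% of gained sites with C/EBPβ in differentiated cells and at 9.04% of those without it. C/EBPβ and H3K9Ac were both new at 46 gained sites of 43 genes, of which those nearest to a TSS belonged to Lrrn4cl, Rassf5, F7, Sdccag8, Nbea, Fam20a, Osbpl2, Rbfox2, Sned1 and Adamts4. Of these, Rassf5 encodes a Ras effector, F7 coagulation factor VII, and Adamts4 an aggrecan-cleaving protease.

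By nearest TSS within 100 kb, 1337 gained sites fell to 1104 of 22239 genes, which is 4.96%, and the other 304 were farther from any TSS. Of these genes 389, or 1.75% of all, had no undifferentiated RUNX2 site. Of the 1104 genes 715, or 64.8%, had an undifferentiated site, against 27.3% of all genes, and 533 also had a lost one. Counted over all their sites, 625 of the 1104 had more RUNX2 sites in differentiated cells, 234 had fewer and 245 had as many. Over all genes, 2.92% had more and 19.8% had fewer. The gene with the nearest TSS need not be the one a site acts on, and these counts rest on the values that chose the sites.

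Counted by nearest TSS, Tbc1d1, a Rab GTPase-activating protein of glucose transporter traffic, had the most, with 6 gained sites. It had 10 RUNX2 peaks in differentiated cells, against 5 in undifferentiated cells. Counts by gene body could rank genes otherwise, since gained sites in introns of Prkce were counted at Gm10309. The gained sites of Tbc1d1 lay 15.1 to 87.8 kb from a TSS, 2 of them in introns. H3K9Ac covered 3 of the 6 in differentiated cells and none in undifferentiated cells, C/EBPβ overlapped 3 in differentiated cells and none in undifferentiated cells, and H4K5Ac covered 5 in each state. Over the whole gene there were 9 C/EBPβ peaks in differentiated and 4 in undifferentiated cells.

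Gadd45a, Haao and Kcnma1 each had 4 RUNX2 peaks in differentiated cells and none in undifferentiated cells. Gadd45a encodes a stress-induced growth arrest protein, and its 4 sites lay between genes 48.7 to 91.6 kb from the TSS, each with a RUNX word. H4K5Ac and H3K4me1 covered all 4 Gadd45a sites in both states, and H3K9Ac covered 3 in differentiated cells and none in undifferentiated cells. Kcnma1 encodes the pore of the BK potassium channel, and its 4 sites lay in its introns, 59.7 to 98.5 kb from the TSS and at least 562 kb from any undifferentiated RUNX2 peak. Neither Haao, an enzyme of tryptophan breakdown, nor Kcnma1 had H3K4me3 at its promoter in either state, and their H3K36me3 coverage was at most 0.301% of the gene body.

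Other genes with 4 gained sites were Prkce, protein kinase C epsilon, Tns1, the focal adhesion protein tensin 1, Hhat, the acyltransferase of hedgehog ligands, Tgfbr3, the TGFβ co-receptor betaglycan, Col4a2, a basement membrane collagen, Nrp2, a semaphorin and VEGF co-receptor, and Adamtsl3. Tns1 had 6 RUNX2 peaks in differentiated and 3 in undifferentiated cells, and H3K9Ac covered all 4 of its gained sites in differentiated cells and 1 in undifferentiated cells. Col4a2 had 8 peaks in each state, with 4 gained and 4 lost, and H3K9Ac covered all 4 gained sites in differentiated cells and none in undifferentiated cells. Adamtsl3 had 9 peaks in differentiated and 12 in undifferentiated cells, so its gained sites came with a larger number of lost ones. The 9 genes with 3 gained sites among the top 20 were 1700021F07Rik, Dupd1, Dut, Eepd1, Gm10309, Kcnk2, Mamdc2, Mertk and Sdc1, and the 3 sites nearest to Dut lay in introns of Fbn1, which encodes fibrillin 1, as the 3 nearest to Gm10309 lay in introns of Prkce.

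**Figure D4:**
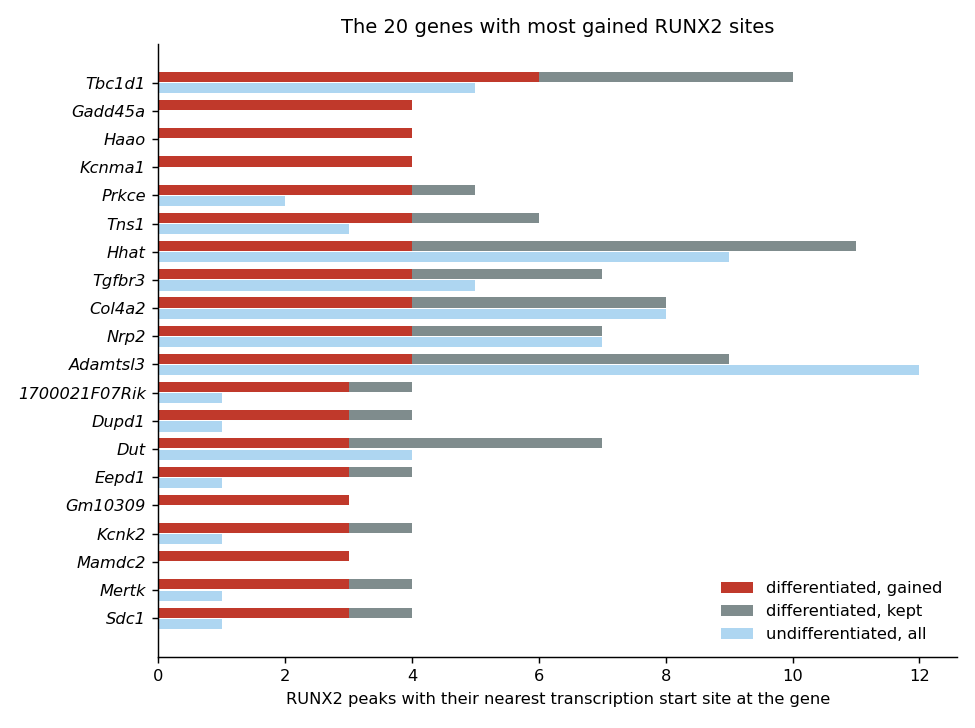
Number of RUNX2 peaks whose nearest transcription start site is at the gene, for the 20 genes with most gained sites; upper bars, differentiated cells with gained peaks in red and kept peaks in grey, lower bars, all peaks of undifferentiated cells. Gadd45a, Haao and Kcnma1 have 4 peaks in differentiated cells and none in undifferentiated cells, while Adamtsl3 has 9 in differentiated and 12 in undifferentiated cells.

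Genes of bone matrix had 1 gained site each where they had any. In the list of osteoblast matrix and mineralisation genes 5 of 24, 20.8% (7.13 to 42.2), had a gained site, beside 4.96% of all genes. The list was also richer in RUNX2 sites before differentiation, with an undifferentiated site at 19 of 24 genes against 27.3% of all genes. More RUNX2 sites in differentiated cells were found at 1 of the 24 and fewer at 15, beside 2.92% and 19.8% of all genes. The 5 were Col1a1 for type I collagen, Ank for a pyrophosphate transporter, Fmod for fibromodulin, Fn1 for fibronectin and Tnc for tenascin C. The Col1a1 site lay in a coding exon 132 bp from a TSS, and that gene had 6 RUNX2 peaks in differentiated and 7 in undifferentiated cells. Among 24 osteoblast transcription factors 1 had a gained site, Fosl2, a member of the AP-1 family, which is 4.17% (0.105 to 21.1). Of the 12 genes for osteoclast coupling and cytokines 0 had one (0 to 26.5%). Both intervals included the 4.96% of all genes, so the counts do not set these lists apart from all genes.

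The highest share of all lists was at growth factor and receptor genes, beside 4.96% of all genes. Collagens other than type I came close, at 37.5% (15.2 to 64.6), and the intervals of the 2 lists overlapped. In the list of IGF, FGF, PTH and vitamin D signalling 8 of 20 genes, 40.0%, had a gained site, namely the ligands Igf1 and Igf2, the binding protein gene Igfbp2, the receptors Fgfr1, Fgfr2, Pth1r and Ghr, and Rxra, the nuclear receptor partner of the vitamin D receptor. Pth1r, the receptor for parathyroid hormone, had 4 RUNX2 peaks in differentiated and 2 in undifferentiated cells, and Ghr, the growth hormone receptor, had 3 in each state with 2 of them gained. Wnt signalling had 7 of 24, with Ctnnb1 for β-catenin, the target and inhibitor Axin2, the secreted modulators Dkk2, Dkk3 and Sfrp1, the nuclear factor Tcf7l2 and the receptor Ror2. The TGFβ, BMP and Smad list had 6 of 28, with the ligands Tgfb2 and Bmp4, the receptors Tgfbr2, Tgfbr3 and Bmpr1a, and the transducer Smad3. Genes with more RUNX2 sites in differentiated cells numbered 3 of 20 in the IGF, FGF, PTH and vitamin D list, 1 of 24 in the Wnt list and 2 of 28 in the TGFβ list. More genes had fewer sites, at 11 of 20, 13 of 24 and 11 of 28 genes of the same 3 lists. Over all genes, 2.92% had more sites and 19.8% fewer.

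Collagens other than type I had a gained site at 6 of 16 genes, Col4a2, Col6a2, Col11a1, Col12a1, Col24a1 and Col27a1. The contractile and focal adhesion list had 4 of 20, Tns1, Tns3, Mylk and Cald1. Matrix remodelling had 3 of 16, Mmp2, Timp3 and Adamts4, each of which had more RUNX2 peaks in differentiated cells. Of the 16 matrix remodelling genes 3 had more peaks in differentiated cells and 8 fewer, beside 2.92% and 19.8% of all genes. Of the 16 collagens 4 had more and 10 fewer, and of the 20 contractile genes 1 had more and 13 fewer. Glucose and lipid handling had 3 of 18, Tbc1d1, Lpl and Ppargc1b, growth arrest and stress 1 of 20, Gadd45a, and cell cycle 2 of 20, Cdk1 and Myc. The osteocyte list had 1 of 8, Cd44. These lists too held many genes with a RUNX2 site in undifferentiated cells, such as 15 of 20 in the IGF, FGF, PTH and vitamin D list and 21 of 24 in the Wnt list. Lists of these sizes have wide intervals, from 19.1% to 63.9% for the 8 of 20. The intervals of the matrix remodelling, glucose and lipid, growth arrest, cell cycle and osteocyte lists included the 4.96% of all genes. So did those of the osteoblast transcription factor and osteoclast coupling lists.

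Lists of markers of other cell types had between 0 and 2 genes with a gained site, beside 4.96% of all genes. The interval of each of these lists included that share, so the counts do not set these lists apart from all genes. Muscle, haematopoietic and neural lists of 12 genes each had none, the adipocyte list had 1 of 12, Lpl, the chondrocyte list 1 of 12, Sox5, and the endothelial list 2 of 9, Cdh5 and Emcn. No gene of the adipocyte, muscle, haematopoietic, endothelial and neural lists had H3K4me3 at its promoter in either state, and of the chondrocyte list 3 of 12 did in differentiated and 2 in undifferentiated cells. Among 12 osteoblast markers 6 had promoter H3K4me3 in each state, with Spp1, osteopontin, in differentiated cells alone and Sp7, osterix, in undifferentiated cells alone. Alpl, Bglap, Dmp1 and Phex had no H3K4me3 and no H3K36me3 in either state, and H3K36me3 covered 86.5% of Ibsp, bone sialoprotein, in differentiated cells and 0% in undifferentiated cells.

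H3K36me3 along the gene body, which the rule did not use, was more often higher than lower at genes with a gained site. Of these genes 842 had some H3K36me3 in at least 1 state. Coverage was higher by 10 percentage points or more in differentiated cells at 137 of them, 16.3%, and lower by as much at 58, 6.89%. Over all 11480 covered genes the shares were 9.93% higher and 9.13% lower. Genes with a kept but no gained site had 9.58% higher and 9.01% lower, and the higher share at genes with a gained site was 6.69 points greater (3.94 to 9.63). For any change the contrast was smaller, with 51.8% (48.3 to 55.2) of the 842 genes higher and 42.6% lower. Genes with a kept but no gained site had 47.7% (45.4 to 50.1) higher and 45.9% lower, and all covered genes 45.5% higher and 45.9% lower. The median change at genes with a gained site was 0.0957 points. Covered genes with a gained site were long, with a median of 49.8 kb against 22.9 kb over all covered genes. Among genes of up to 50 kb, 13.5% of those with a gained site were higher by 10 points and 8.04% lower, against 9.40% higher and 8.88% lower of all covered genes of that length. Among longer genes with a gained site 19.1% were higher and 5.73% lower, against 11.4% higher and 9.82% lower of all covered longer genes.

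Several receptor and matrix genes stood among the 137. Coverage of Ghr was 89.6% in differentiated and 42.8% in undifferentiated cells, and that of Pth1r was 81.0% in differentiated and 41.5% in undifferentiated cells. The fibrillar collagen gene Col11a1 had 63.3% in differentiated and 0% in undifferentiated cells, and Col24a1 had 84.0% in differentiated and 24.5% in undifferentiated cells. Runx3 had 94.3% in differentiated and 49.0% in undifferentiated cells, and the gene had 5 RUNX2 peaks in differentiated and 7 in undifferentiated cells and H3K4me3 at 1 TSS or more in both states. Sdc1, the proteoglycan syndecan 1, had 77.2% in differentiated and 38.8% in undifferentiated cells, and Tns1 had 54.8% in differentiated and 22.6% in undifferentiated cells. The 58 in the other direction included Bmp4, at 49.1% in differentiated and 100% in undifferentiated cells, and Igfbp2, an IGF-binding protein, at 0% in differentiated and 36.5% in undifferentiated cells. Coverage differed by under 10 points at Tbc1d1, with 53.6% in differentiated and 56.0% in undifferentiated cells, and at Gadd45a, with 74.4% in differentiated and 75.1% in undifferentiated cells.

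**Figure D5:**
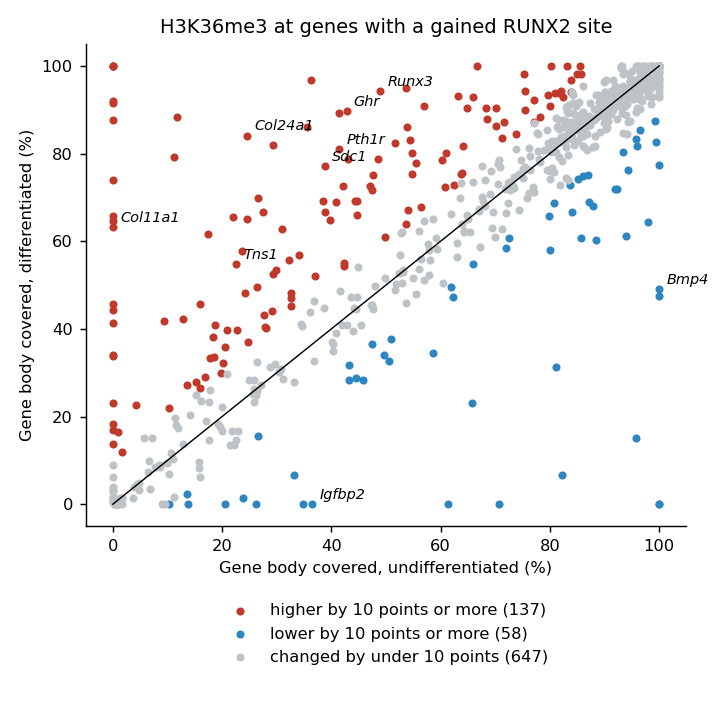
Percentage of the gene body covered by H3K36me3 in differentiated (vertical) against undifferentiated cells (horizontal), 1 point per gene with a gained RUNX2 site and H3K36me3 in at least 1 state; the line marks equal coverage. Red points are the 137 genes higher by 10 points or more in differentiated cells and blue points the 58 lower by as much.

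New promoter H3K4me3 was also more frequent at genes with a gained site than over all genes. It was present in differentiated cells alone at 120 of 1104, 10.9% (9.09 to 12.9), against 6.60% of all genes. Genes with a kept but no gained site had 7.94% (6.85 to 9.14) and genes with lost sites only had 9.40% (8.40 to 10.5). The interval of genes with a gained site overlapped both, the former only barely, and such overlap does not show equal shares. In undifferentiated cells 53.6% of genes with a gained site had the mark, against 60.5% of the kept and 59.5% of the lost class. The classes thus differed in how many genes could acquire it, while the shares above are over all genes of a class. Of 1104 genes with a gained site 592 had the mark before and 120 had it new. For the 3126 genes with lost sites only these counts were 1861 and 294. For the 2230 genes with a kept but no gained site they were 1349 and 177. The shares thus do not show that unmarked genes acquired it more often where a site was gained, and the part of this was not tested.

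Gained sites were spread over the genome but not evenly. By chromosome they made up between 19.6% of differentiated RUNX2 peaks on chromosome 17 and 44.2% on chromosome 14, where they were 73 of 165 (36.5 to 52.2). In windows of 5 Mb with at least 10 differentiated peaks, 14 of 268 had a gained share of 50% or more, beside 26.2% of the whole list. Windows with few peaks vary widely by counting error, and its part in these shares was not tested. The highest of the 268 was on chromosome 14 between 30 and 35 Mb, with 9 of 12 peaks gained (42.8 to 94.5%). Within 10 kb of another gained site lay 191 of the 1641, which is 11.6%.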

How the data were processed

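The submitters' processing notes name Bowtie, HOMER and mm9, with versions and thresholds not given in the sources used here. The 14 deposited peak lists merge replicates, per the labels. Each list gives positions and a score set by the authors, which is 0 throughout the transcription factor lists and served only to rank mark regions within their own list. RUNX2 peaks are 201 bp wide; 1 undifferentiated peak with a start below 0 was clipped. Read depth is unknown, and the 2 inputs were not analysed here. By the labels the differentiated input had 100 nM vitamin D and the undifferentiated input had vehicle for 3 h. The part of this in the deposited lists was not tested.

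Peaks counted as shared, or as inside a mark, from 1 bp of overlap. Genes and TSSs came from GENCODE vM1 on NCBIM37, which is mm9, with promoter H3K4me3 within 1 kb of a TSS. Shares have exact Clopper-Pearson and differences Newcombe 95% intervals, computed with Python 3.11.15 and SciPy 1.17.1 after checks on simulated data. Words were searched on both strands. Coordinates are 1-based.

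The sites, the gene lists and the measures were chosen with earlier results of these data known. Named genes were the 20 with most gained sites, list members with a gained site, and those of promoter sites with new H3K4me3. Sites with 3 new marks, and sites with new C/EBPβ and H3K9Ac nearest to a TSS, were named too. Examples of H3K36me3 were chosen after their values were seen. Peaks overlapping a UTR were not printed as sequence, and 1 list's result and 1 sequence are not reported here. Alternatives varied the overlap, promoter width, chromosomes, mark regions, word window and gene assignment.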

Additional observations from a re-analysis of the deposited data

How the results depend on the processing

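The lists hold merged replicates, so no replicate could be left out. No paired analysis was possible because each antibody and state has 1 list. Of 102 recomputed values for 20 results, 74 moved by no more than the main interval, or for counts by no more than 1.5 times, 28 moved by more, and none changed direction. Values below are points, gained minus kept, and the cause of each shift was not tested. With overlap over most of a peak's length needed for a shared site, which turns partly overlapping kept sites into gained ones, the promoter difference was -2.92, H4K5Ac before differentiation -9.61, H3K9Ac -24.0 after and -22.3 before, H3K4me3 -4.17 after and -5.53 before, C/EBPβ before -20.2 and any E-box 4.96. With gained sites over 1 kb from every undifferentiated peak, H3K9Ac was -35.9 after and -34.5 before. With mark regions above their list's median score, H4K5Ac was -11.2 after and -18.4 before, H3K4me1 -7.78 after and -19.7 before, H3K9Ac -22.1 after and -15.0 before, and H3K4me3 -4.70 after and -5.53 before. In distal sites H3K4me3 was -1.92 after and -3.32 before, and C/EBPβ before was -27.2. C/EBPβ before was -18.3 with the same overlap asked of the factors. TGTGGT alone gave -2.15 for the RUNX word. CAGCTG was 11.5 at 45 to 50% GC and 12.5 at 50 to 55% GC. Among genes with a gained site whose H3K36me3 coverage differed, 54.8% were higher in differentiated cells, against 70.3% for differences of 10 points or more, 62.6% of those up to 50 kb long and 76.9% of longer ones. Tests of CAGCTG, any E-box, H3K4me3 after and gene length were added after seeing the data. By another assignment of sites to genes, within 20 kb of a TSS, 964 genes had a gained site, and 691 of them were among the 1104.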
